A study of Mus musculus with 12 samples.

Results

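Genes that mark monocytes and macrophages were followed in the colon and the circulating blood in a mouse dextran sulfate sodium (DSS) model of ulcerative colitis (UC). The 10 genes are Cd68, Adgre1, Csf1r, C1qa, C1qb, C1qc, Mrc1, Cd163, Ly6c2 and Lyz2, chosen by gene symbol from the 53801 genes counted. All 10 were listed in the colon table (32689 genes) and in the blood table (25514 genes) of normalized counts. Total RNA was sequenced from C57BL/6 male mice, 8 weeks old. Per the study, UC mice drank 1.5% DSS for 7 days and control mice drank water without DSS. The sample labels name mice 1, 2 and 4 as UC and mice 7, 8 and 9 as control, which is in doubt for some mice, as described below. Tissues were taken on day 8. Each mouse gave 1 colon and 1 blood library, so that 12 libraries form 4 groups of 3. The 6 mice were selected by their disease activity index. RNA came from whole colon and whole blood, with different extraction and depletion kits for the tissues, so that tissue and kit cannot be told apart. In such bulk samples, fewer cells of a type and less RNA per cell cannot be told apart either.

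Monocytes are made in the bone marrow, circulate in blood and enter tissues, where they can become macrophages. The gut wall holds a large macrophage population that is replenished by incoming Ly6C-high monocytes, and mature gut macrophages carry scavenger receptors and make complement C1q. In DSS colitis, monocytes are known to gather in the injured mucosa before they mature. Cd68, Adgre1 (the F4/80 antigen) and Csf1r (the receptor for the growth factor CSF1) mark the lineage broadly. C1qa, C1qb, C1qc, Mrc1 and Cd163 are high in resident macrophages, Ly6c2 marks the recruited, classical monocyte, and Lyz2 (lysozyme M) is made by monocytes, macrophages and neutrophils.

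The total count per library was between 69181049 and 103662306 in the colon and between 80867247 and 142536804 in the blood. For every library the labels hold both tissue names in different fields, and the one that matches the column names was followed. Gut and red cell genes parted the tissues accordingly, with the red cell gene Alas2 at a normalized count of at least 3828109 in every blood library and of at most 3820.5 in every colon library. The disease labels fared differently. Of 9 neutrophil genes with a mean of at least 10 in the colon, 9 had their 3 highest values in mice 1, 7 and 9, of which only mouse 1 is labelled UC, and in the blood 8 of 11 did. The authors' normalized tables also list their columns with mice 1, 7 and 9 before mice 2, 4 and 8. The groups are therefore called labelled UC and labelled control throughout, and a direction between them is one between labels. Leaving out the libraries in doubt would leave 1 library a group, so each mouse was left out in turn instead.

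In the colon, all 10 genes were highest in the same 3 libraries, those of mice 1, 7 and 9. The same 3 libraries were highest for 4039 of 22182 colon genes tested and listed, or 18.2%. The span was wide, with a median ratio of highest to lowest library of 3.95 over the 10 genes and 2.14 over all genes. The gap between the third and the fourth library was 1.76-fold at the median of the 10 genes and 1.11-fold at the median of all genes. Because the labels put mouse 1 with mice 2 and 4, and mouse 8 with mice 7 and 9, the labelled groups overlapped for all 10 genes.

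Among the lineage genes, Cd68 encodes a lysosomal membrane glycoprotein of phagocytes (chromosome 11, 69664213 to 69666153, minus strand, GRCm38). Its colon normalized counts were 1085.5, 421.5 and 435.5 in mice 1, 2 and 4, and 1363, 388.2 and 1612 in mice 7, 8 and 9. The libraries of mice 2, 4 and 8 lay within a narrow band and those of mice 1, 7 and 9 stood 2.49-fold or more above it. Adgre1 (chromosome 17, 57358691 to 57483527, plus strand) had the narrowest span of the 10, from 839.5 in mouse 8 to 2399 in mouse 9, a ratio of 2.86. Csf1r, on chromosome 18, ran from 1664 in mouse 8 to 5593 in mouse 9. Of the exon bases of Csf1r, 15.1% are shared with Hmgxb3 on the opposite strand, and reads of the pair may not all be parted there. The part of Hmgxb3 reads in the Csf1r counts was not tested.

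The C1q genes encode the 3 chains of C1q, which starts the classical complement pathway and tags dying cells for uptake. They lie side by side on the minus strand of chromosome 4, C1qb at 136880129 to 136886187, C1qc at 136889804 to 136893065 and C1qa at 136895917 to 136898803. Colon normalized counts of C1qa were 3131, 1285 and 1704 in mice 1, 2 and 4 and 4890.2, 1434 and 5013 in mice 7, 8 and 9. Those of C1qb were 3604, 1325 and 2109 under the UC label and 5430.1, 1639.9 and 5914.5 under the control label. C1qc followed with 3335, 1597 and 2016, and with 5259, 1529 and 5484. The 3 chains moved together in the colon. Counts per kb of C1qb were between 0.986 and 1.18 times those of C1qa in the 6 libraries. C1qc stayed between 0.574 and 0.669 times C1qa. The C1qc ratio depends on the length used, since C1qc has 1931 exon bases in all but 1203 in its longest coding transcript. C1qa has 1040 by either length, so the ratio does not show that C1qc was lower.

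The bases just upstream of the annotated starts of C1qb and C1qc are shown because the pair varied together. They are RefSeq promoter sequence of GRCm38.p6, minus strand, at chr4:136886201-136886400 for C1qb and chr4:136893066-136893164 for C1qc, printed 5′ to 3′. Capitals mark the PU.1 core GAGGAA, on either strand, PU.1 being the transcription factor of the myeloid lineage that Spi1 encodes.
C1qb: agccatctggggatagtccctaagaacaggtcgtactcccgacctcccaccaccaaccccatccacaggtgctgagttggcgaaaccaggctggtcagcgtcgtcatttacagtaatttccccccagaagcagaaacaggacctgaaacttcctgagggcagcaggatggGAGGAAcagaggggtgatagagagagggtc
C1qc: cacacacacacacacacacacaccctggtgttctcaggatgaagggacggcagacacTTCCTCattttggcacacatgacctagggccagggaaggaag

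GAGGAA was found, on either strand, in 28.3% of 32851 RefSeq promoter windows of 300 bases (250 before the start and 50 after it). Of the 10 genes, 7 had their windows searched, since Csf1r was set aside beforehand and Adgre1 and C1qa had no window. Among the 7, GAGGAA was in the windows of Cd68, C1qb, C1qc, Mrc1 and Ly6c2, and Mrc1 held 3 copies. The windows of Cd163 and Lyz2 held none. An interferon response element, GAAA followed by any 2 bases and GAAA on either strand, was present in 3.4% of all windows and in 0 of the 7 genes. The AP-1 motif TGANTCA, present in 7.8% of all windows, was in that of Cd68, which held 2 matches, and in 0 of the other 6. These are matches of letters and say nothing of binding.

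The scavenger receptors differed from each other in the colon. Mrc1 (chromosome 2, 14229392 to 14332057, plus strand) encodes the mannose receptor CD206, and its normalized counts were 5345, 3116 and 2969 in mice 1, 2 and 4 and 7848, 2397 and 6961 in mice 7, 8 and 9. Cd163 (chromosome 6, 124304656 to 124330527, plus strand) encodes the receptor for haemoglobin bound to haptoglobin. Its values were 1711.5, 515.5 and 555.9 under the UC label and 2195, 702.1 and 1848 under the control label. Mouse 7 was highest for both receptors, whereas mouse 9 was highest for the other 8 genes. Cd163 per Mrc1, as counts per kb, was 0.193 and 0.218 in mice 2 and 4 and between 0.310 and 0.374 in the other 4 mice, so that mouse 8, low for both genes, went with mice 1, 7 and 9 in this ratio.

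Ly6c2, the gene of the Ly6C antigen of classical monocytes (chromosome 15, 75108158 to 75111970, minus strand), spread most. Colon normalized counts were 623.2, 168.9 and 231.0 in mice 1, 2 and 4, and 967.4, 142.4 and 1059 in mice 7, 8 and 9. The highest library was 7.44 times the lowest, against 3.27 for Mrc1. Set against the broad macrophage gene in the same library, Ly6c2 per Adgre1 (counts per kb) was 0.459, 0.580 and 0.522 in mice 1, 7 and 9, and 0.238, 0.276 and 0.201 in mice 2, 4 and 8. The 2 sets did not overlap, but each set holds libraries of both labels. Reads of the near copy Ly6c1, described below, may be counted in Ly6c2, and their part in its span and this split was not tested. Lyz2 (chromosome 10, 117277331 to 117282321, minus strand) had by far the highest level per length of the 10, with a median of 12427 normalized counts per kb over the colon libraries, against 2625.5 for C1qb, 664.0 for Mrc1 and 155.9 for Ly6c2. Lyz2 values ran from 7086 in mouse 8 to 28320 in mouse 9. The level per kb of Ly6c2 and its ratios use 2740 exon bases, where its longest coding transcript has 822.

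**Figure D1:**
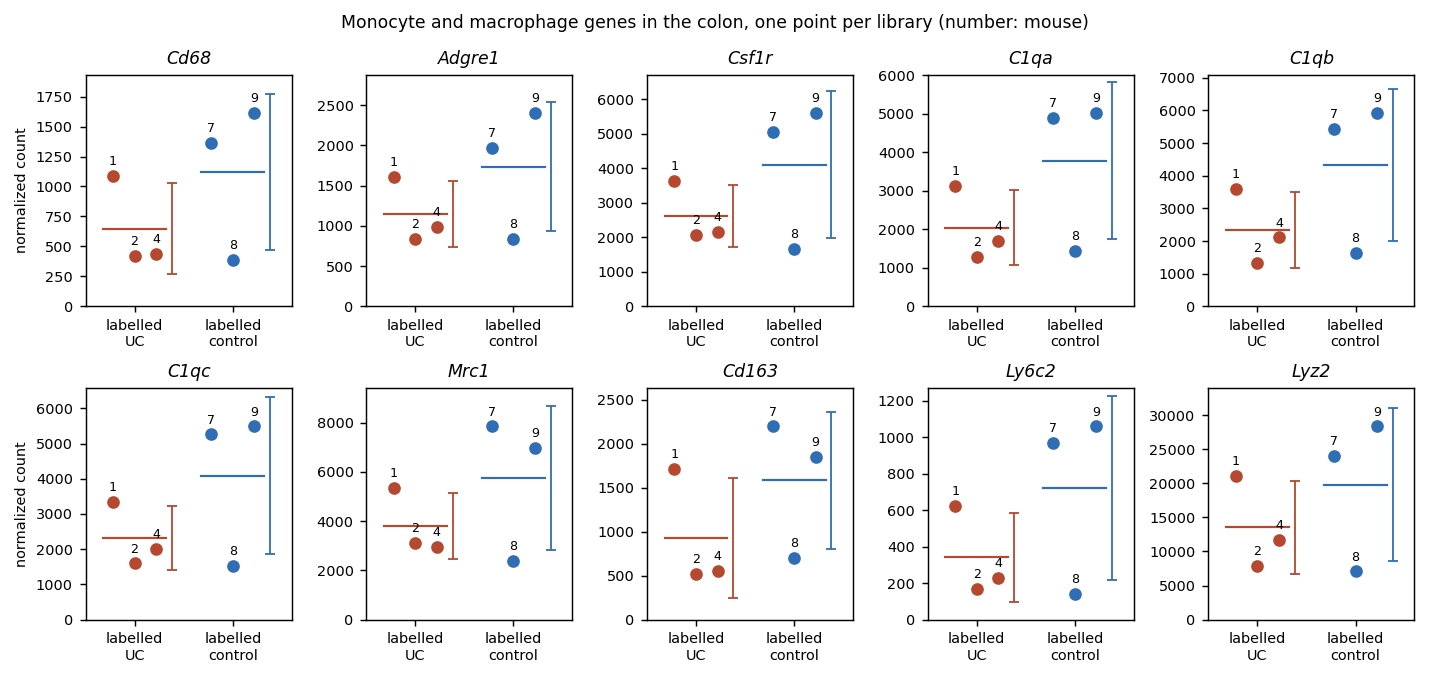
Normalized counts of the 10 genes in the 6 colon libraries, 1 panel a gene with its own linear axis from 0. Points are libraries with their mouse numbers, horizontal lines are group means and bars beside them are 1 SD (n = 3). In every panel mice 1, 7 and 9 lie above mice 2, 4 and 8, across both labels.

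Ly6c2 has a near copy, Ly6c1, at 75044018 to 75048830 on the same strand, which is high on endothelial cells and some lymphocytes. Of the windows of 50 bases in the Ly6c2 transcript, 32.6% also occur in Ly6c1, so that the counts of the pair are uncertain where reads could be split. The coding sequences are of equal length (396 bases) and differ at 9 positions, with a shared run of 188 bases. The first 150 coding bases hold 6 of the 9 differences, which are the capitals below, and are shown because these positions let reads be told apart.
Ly6c2: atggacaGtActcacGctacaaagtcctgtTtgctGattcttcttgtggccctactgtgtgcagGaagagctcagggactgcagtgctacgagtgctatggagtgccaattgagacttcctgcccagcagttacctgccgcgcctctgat
Ly6c1: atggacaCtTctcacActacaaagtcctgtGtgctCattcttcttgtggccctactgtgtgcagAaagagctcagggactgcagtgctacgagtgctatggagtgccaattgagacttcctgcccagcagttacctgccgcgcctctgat

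Despite this likeness the pair had different levels. Ly6c1 normalized counts in the colon were 7833, 739.4 and 982.4 in mice 1, 2 and 4, and 10638, 805.4 and 14709 in mice 7, 8 and 9. That is the same order of libraries at the top, with a span of 19.9-fold, above that of any of the 10 genes. The part of Ly6c1 reads in the colon values of Ly6c2 was not tested. Ly6c2 per Ly6c1, as counts per kb, was at most 0.144 in any colon library and at least 1.82 in any blood library. The upstream sequences of the pair (RefSeq, GRCm38.p6, minus strand, chr15:75111972-75112171 for Ly6c2 and chr15:75048838-75049037 for Ly6c1) are given with GAGGAA, on either strand, in capitals, since the pair differed between tissues.
Ly6c2: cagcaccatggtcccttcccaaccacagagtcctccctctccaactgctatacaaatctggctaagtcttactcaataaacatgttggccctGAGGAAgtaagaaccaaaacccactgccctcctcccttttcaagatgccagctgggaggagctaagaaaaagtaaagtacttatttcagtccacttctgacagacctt
Ly6c1: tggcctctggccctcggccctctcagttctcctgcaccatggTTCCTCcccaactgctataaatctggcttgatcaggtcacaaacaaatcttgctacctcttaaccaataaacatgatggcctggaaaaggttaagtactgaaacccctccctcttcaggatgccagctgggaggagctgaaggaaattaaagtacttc

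Lyz1, the Paneth cell lysozyme gene, stands next to Lyz2 at 117287797 to 117292868, and 15.4% of the 50-base windows of Lyz2 occur in it too. Lyz1 did not share the colon pattern of Lyz2. Its normalized counts were 702.8, 589.6 and 763.8 in mice 1, 2 and 4 and 894.1, 645.4 and 545.3 in mice 7, 8 and 9, a span of 1.64-fold with mouse 9 lowest. Lyz2 per Lyz1 ran from 10.5 in mouse 8 to 49.8 in mouse 9.

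In the blood, Adgre1, Csf1r, Ly6c2 and Lyz2 were abundant in all 6 libraries, Cd68 and Mrc1 were counted at lower levels in each, and the C1q genes and Cd163 were near the limit of counting in most. Ly6c2 normalized counts were 1157, 736.0 and 1269 in mice 1, 2 and 4, and 981.6, 756.1 and 702.5 in mice 7, 8 and 9, a span of 1.81-fold with no gap between the labels. Lyz2 ran from 61028 in mouse 2 to 92320 in mouse 4, a span of 1.51-fold, the narrowest of the genes counted in every blood library. Adgre1 spanned 1.71-fold and Csf1r 2.52-fold, the latter from 1968 in mouse 8 to 4950.3 in mouse 1. Cd68 was lower, between 117.2 in mouse 8 and 319.1 in mouse 1, on 88 to 347 counts.

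Of the 9 genes tested in blood, 4 (Cd68, Csf1r, C1qb and C1qc) had their 3 highest values in mice 1, 7 and 9, against 11.8% of 16727 genes.

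C1q transcripts in blood came mostly from 1 library. The counts of C1qa were 155, 11 and 14 in mice 1, 2 and 4, and 54, 0 and 3 in mice 7, 8 and 9. C1qb was counted 62 times in mouse 1, 19 times in mouse 7 and 14 times in mouse 9, and not at all in mice 2, 4 and 8. C1qc had 148 counts in mouse 1, 19 in mouse 7, 11 in mouse 9, 6 in mouse 4 and 0 in mice 2 and 8. Were each count 1 read, a count of 0 would allow up to 3 counts, which is between 2.45 and 4.52 on the normalized scale of these libraries. The counts derive from transcript coverage, so this floor is nominal, and it covers counting error only. Unlike in the colon, the chains did not keep 1 ratio, since C1qb per C1qa was 0.382 in mouse 1, 0.336 in mouse 7, 4.46 in mouse 9 and 0 in mice 2 and 4.

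Of 17 resident macrophage genes in the blood table, 10 were highest in mouse 1 and 7 in another mouse. Selenop was lowest there (3380.3, up to 6213 in mouse 9), Cbr2 was listed at 0 there and at 15.3 in mouse 7, and the summed level of the list in mouse 1, 34382, lay within the range of the other 5 libraries (32111 to 38886), most of it from Pf4, which platelets also make. The genes that follow were high in mouse 1 and were picked after their values were seen. The counts of Cd163 were 38 in mouse 1, 13 in mouse 2 and 6 in each of the other 4. Timd4, a receptor of resident macrophages for dying cells, and Vsig4, a complement receptor of tissue macrophages, stood at 54.8 and 17.9 normalized counts in mouse 1 and were listed at 0 in the other 5 blood libraries. Marco, a scavenger receptor, was listed at 74.8 in mouse 1 and at 0 elsewhere, and Cd5l, which macrophages secrete, at 355.9 in mouse 1, 8.27 in mouse 9 and 0 in the other 4. Mouse 1 also had the highest summed neutrophil level in blood (462772, against 37912 to 346205 in the other 5 libraries), and the part of either in the C1q values was not tested.

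**Figure D2:**
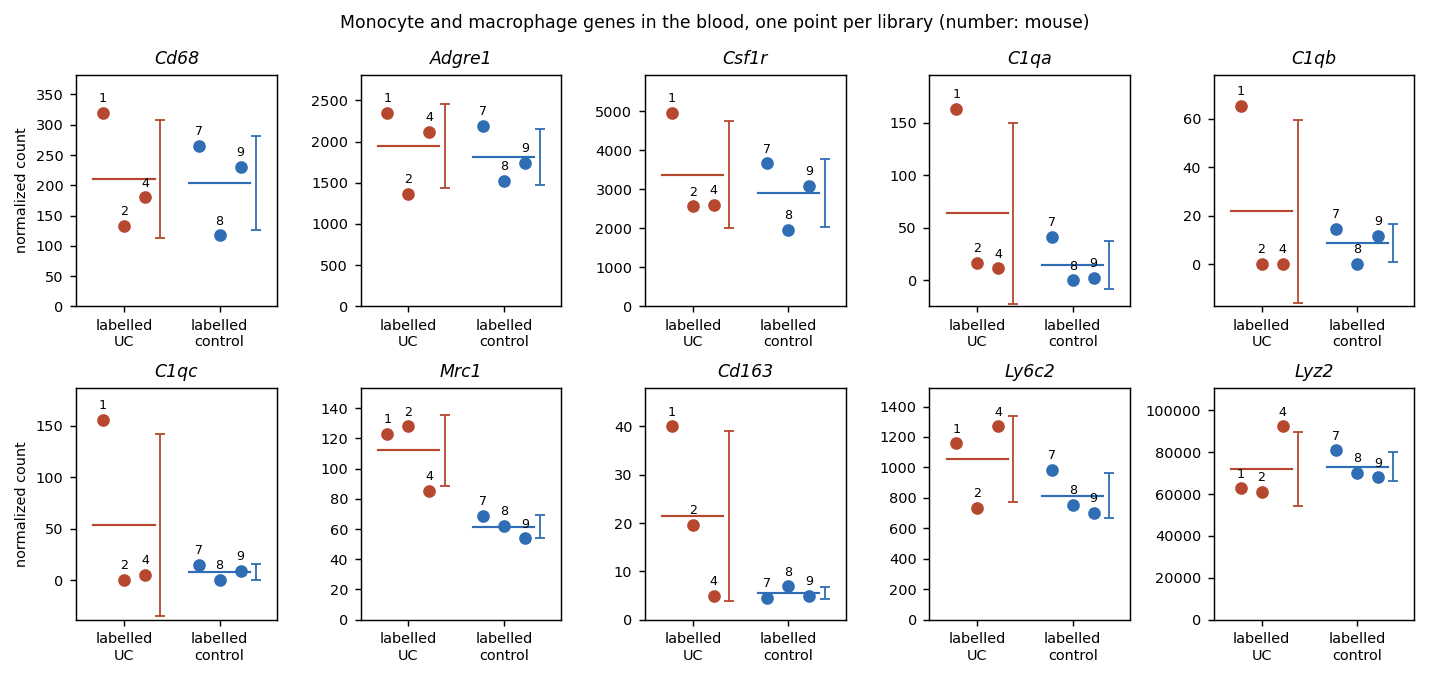
Normalized counts of the 10 genes in the 6 blood libraries, drawn as for the colon with linear axes. Lines are group means and bars 1 SD (n = 3), which run below 0 for the C1q genes because mouse 1 stands apart. Mrc1 is the only panel in which the labelled groups do not overlap.

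Libraries labelled UC were compared with those labelled control within each tissue. In the colon, 0 of the 10 genes passed the threshold of edgeR's quasi-likelihood test (padj at most 0.05 after Benjamini-Hochberg adjustment over all genes, and an absolute log2FC over 1). Of 22238 genes tested, 1 passed, which is 0.0045%, and 0 of the 10 genes had an unadjusted p under 0.05, against 313 of all genes (1.41%). DESeq2 also called 0 of the 10. All 10 fitted log2FC were below 0, from -0.56 ± 0.569 (SE) for Lyz2 to -1.09 ± 0.813 for Ly6c2, with a padj of 0.9999 in edgeR, and 51.0% of all genes were below 0. The Ly6c2 means were 341.0 ± 246.3 (SD, n = 3) under the UC label and 723.0 ± 504.8 under the control label, and those of Mrc1 3810 ± 1331 and 5735.5 ± 2925. Each labelled group held high and low libraries. None of the 10 genes kept the labelled groups apart without overlap, which 5.66% of 22182 genes did. Without each mouse in turn, the log2FC of Ly6c2 ran from -1.86 to -0.74 and that of Cd163 from -1.57 to -0.46, and no gene of the 10 was called. The study, with DESeq2 and the same threshold, reports far more genes between UC and control in the colon and in the blood. Why the counts differ was not tested. Those given here compare labels and do not measure the effect of DSS.

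In the blood, 9 of the 10 genes could be tested, since Cd163 fell below the filter on low counts. Of these 0 were called, as were 0.0% of 16759 genes by edgeR, and 1 had an unadjusted p under 0.05, as did 241 of all genes (1.44%). DESeq2 likewise called 0 of the 9, and 8 of the 9 had a log2FC above 0, where 45.8% of all genes were below it. Mrc1 was the exception in its order. Its normalized counts were 123.2, 127.9 and 85.1 for mice 1, 2 and 4, against 68.9, 62.0 and 53.8 for mice 7, 8 and 9. The labelled groups did not overlap for this gene, as for 6.5% of 16727 blood genes. Its log2FC was 0.86 ± 0.326 (SE), with an unadjusted p of 0.0305 and a padj of 0.9998 in edgeR, and between 0.75 and 1.02 without 1 mouse. The counts behind it were between 54 and 117. For C1qb, leaving out mouse 1 moved the log2FC from 1.28 ± 1.81 to -6.24, and C1qa went from 2.07 ± 1.47 to -0.09. For Cd68, Adgre1, Csf1r, Lyz2 and Ly6c2 the log2FC lay between -0.02 and 0.37.

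The difference between the tissues in the effect of the label was tested as an interaction over the 12 libraries. Of the 10 genes 0 were called by edgeR and 0 by DESeq2, against 0.0043% of 23258 genes in edgeR, and 2 had an unadjusted p under 0.05, as did 793 of all genes (3.41%). All 10 differences were below 0, from -0.54 ± 0.686 (SE) for Lyz2 to -3.53 ± 1.83 for C1qc. The unadjusted p was 0.0283 for Mrc1, at a difference of -1.46 ± 0.580, and 0.0241 for Cd163, at -2.76 ± 1.05, with a padj of 1.0000 for both in edgeR.

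The tissues themselves were told apart by these genes. In the comparison of colon with blood over the 12 libraries (CPM, the count relative to library size, scaled by TMM), 9 of the 10 genes were called and had an unadjusted p under 0.05, where 58.5% of 23258 genes were called and 72.8% had such a p. Of the 10, 4 had a log2FC below 0, as did 40.5% of all genes. By direction, 5 of the 10 genes were called higher in the colon, where 37.7% of all genes were, and 4 higher in the blood, where 20.8% were. The 5 were the C1q chains and both scavenger receptors, and they were called by library size alone as well. The 4 were Lyz2, Ly6c2, Adgre1 and Csf1r, but scaling by library size alone moved the median log2FC of all genes from 0.46 to 2.57 and left Lyz2 alone called higher in the blood, with Csf1r at 0.48 and Adgre1 at 0.00.

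Mrc1 CPM was between 13.8 and 45.8 in the colon and between 0.927 and 2.19 in the blood, a log2FC of 4.11 ± 0.325 (SE, padj = 1.02e-06, edgeR). Cd163 was measured at 2.93 to 12.8 CPM in the colon, against 0.0827 to 0.706 in the blood, a log2FC of 5.10 ± 0.583. For C1qa the CPM was 7.31 to 29.2 in the colon and 0 to 2.88 in the blood, a log2FC of 4.75 ± 0.942 (padj = 9.08e-04, edgeR). No colon library of the 5 genes was as low as any blood library, an order that 36.1% of all genes had. The log2FC of C1qb, 6.09 ± 1.05, rests on few counts in the blood and was 10.16 without mouse 1, while those of Mrc1 and Cd163 stayed within 4.0 to 4.39 and 4.90 to 5.47 without any 1 mouse.

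Lyz2 was highest in blood, with 1047 to 1616 CPM against 40.7 to 165.0 in the colon, a log2FC of -3.86 ± 0.384 (padj = 5.71e-06, edgeR) that was -1.74 by library size alone and still called. Ly6c2 CPM was 12.1 to 22.2 in the blood and 0.819 to 6.17 in the colon, a log2FC of -2.61 ± 0.486 (padj = 5.90e-04, edgeR) that fell to -0.47, and was no longer called, by library size alone. Adgre1 had a log2FC of -2.13 ± 0.290 and Csf1r one of -1.65 ± 0.335. The colon and blood libraries did not overlap on the TMM scale for any of these 4 genes, as for 18.0% of all genes. Cd68 did overlap, at 2.23 to 9.39 CPM in the colon and 2.02 to 5.63 in the blood, and its log2FC of 0.32 ± 0.414 (padj = 0.502, edgeR) became 2.44 and was called by library size alone.

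The paralogs were compared in the same way. Ly6c1 had 4.21 to 85.7 CPM in the colon and 2.86 to 5.27 in the blood, and its log2FC of 2.86 ± 0.726 (padj = 0.00436, edgeR) was not called with the mouse as a replicate block (2.07, padj = 0.0576). Lyz1 counts went the way of Lyz2, with 3.18 to 5.22 CPM in the colon and 7.67 to 15.3 in the blood. The log2FC of Lyz1 was -1.67 ± 0.210, and it was 0.42 and not called by library size alone. The other 5 Paneth cell genes of the list were at 0 in every blood library. Of the 50-base windows of Lyz1, 16.1% occur in Lyz2, and the part of Lyz2 reads in the blood values of Lyz1 was not tested.

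**Figure D3:**
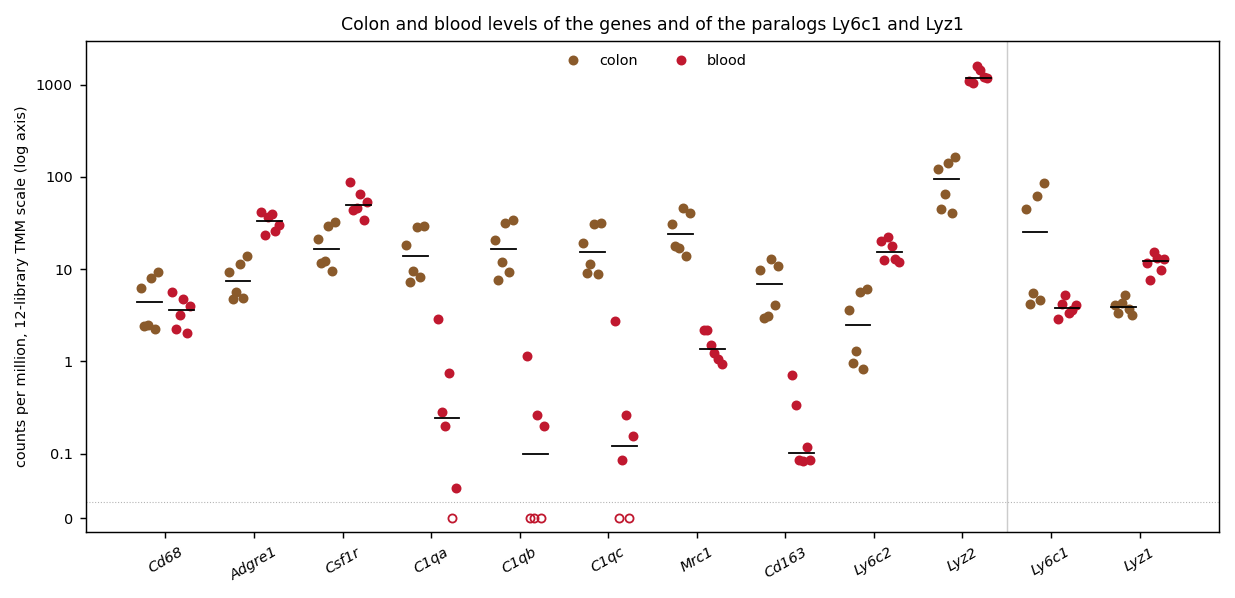
CPM on the 12-library TMM scale, log axis, for the 10 genes and the paralogs Ly6c1 and Lyz1 (right of the line). Each point is a library, lines are medians of 6, and open circles mark libraries with 0 counts. The C1q genes, Mrc1 and Cd163 are higher in every colon library and Lyz2, Ly6c2, Adgre1 and Csf1r in every blood library, an order of the last 3 that depends on the scaling.

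Ratios of 2 genes within a library need no scaling between tissues. Their size depends on the exon length used for each gene, which is the same in both tissues. As counts per kb, Mrc1 per Csf1r was 1.13 to 1.41 in the 6 colon libraries and 0.0158 to 0.0453 in the 6 blood libraries. The colon values formed a tight band across both labels and across the mice that were high and low for both genes. C1qa per Csf1r was 3.47 to 5.39 in the colon and at most 0.183 in the blood, where mouse 1 gave the highest value and mouse 8 a value of 0. Cd163 per Csf1r was 0.265 to 0.497 in the colon and 0.00133 to 0.00855 in the blood.

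Ly6c2 per Mrc1 contrasted the monocyte gene with the mannose receptor, and it was 0.126 to 0.354 in the colon and 13.4 to 34.7 in the blood. Ly6c2 per Csf1r, 0.173 to 0.405 in the colon and 0.480 to 1.03 in the blood, differed by less, and did not overlap. Ly6c2 per Adgre1 did overlap, at 0.201 to 0.580 in the colon and 0.476 to 0.709 in the blood, the colon libraries of mice 7 and 9 reaching the range of the blood. Adgre1 per Csf1r overlapped as well, at 0.697 to 0.90 and 0.845 to 1.45. Lyz2 per Cd68 was 16.8 to 25.6 in the colon and 187.7 to 572.1 in the blood, where neutrophils also make lysozyme M.

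**Figure D4:**
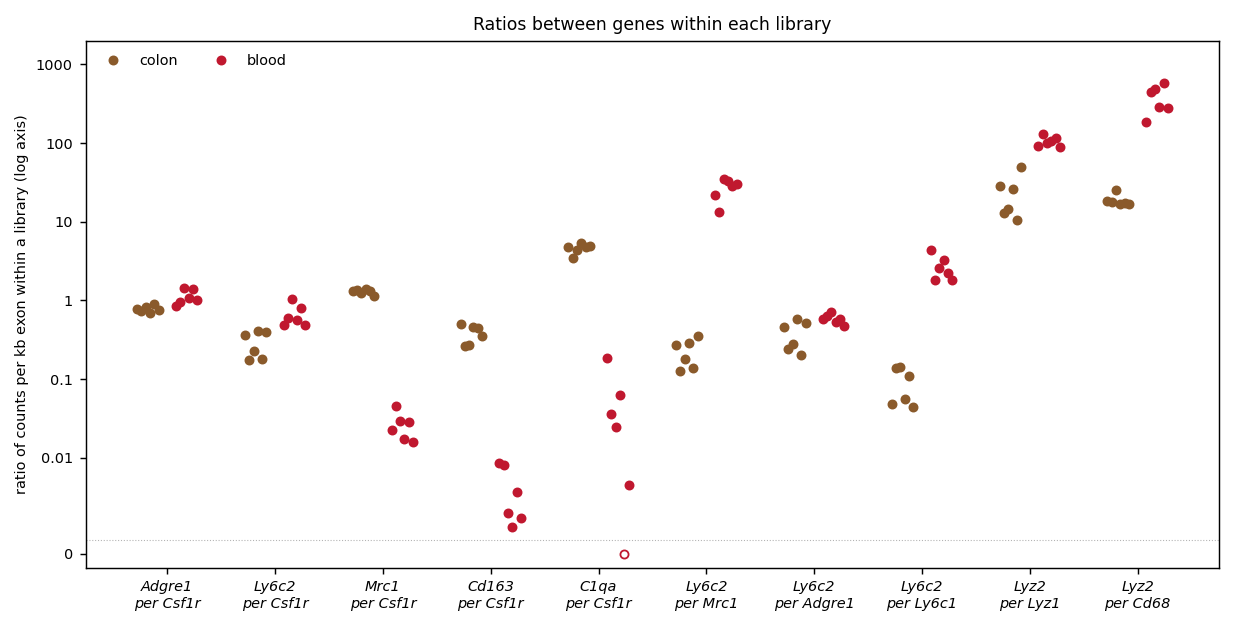
Ratios of counts per kb of exon between pairs of genes within each library, log axis, 6 colon and 6 blood points a ratio. The open circle is a ratio of 0. Ratios with Mrc1, Cd163 or C1qa separate the tissues widely, whereas Adgre1 per Csf1r and Ly6c2 per Adgre1 overlap.

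Further markers were read from lists of resident and recruited cells in the colon. Of 18 recruited monocyte genes, 17 had their 3 highest colon values in mice 1, 7 and 9, and Fn1, which encodes fibronectin, was the exception. Ccr2, the receptor that lets monocytes leave the marrow, was counted at 1387, 365.8 and 656.6 (normalized) in mice 1, 2 and 4, and at 2151, 497.9 and 2303 in mice 7, 8 and 9. Chil3, a secreted chitinase-like protein of monocytes and neutrophils, was at 1565, 11.3 and 23.1 and at 546.3, 3.78 and 3196. Il1b, Nos2 and Saa3 had the same 3 libraries at the top, and Saa3, an acute phase protein that epithelium also makes, was listed at 0 in mice 2, 4 and 8. Of the 18, 4 were called higher in the colon than the blood, Plac8 among them, where 37.7% of all genes were. Another 9 were called higher in the blood, where 20.8% of all genes were. The part of other cells in the values of this list was not tested.

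Of 18 resident macrophage genes, 5 had the colon libraries of mice 1, 7 and 9 at the top, namely Vsig4, Cd4, Il10ra, Stab1 and Apoe. Between tissues, Cd4 and Il10ra, which lymphocytes also express, were called higher in the blood. Vsig4 and Stab1 were called higher in the colon, and Apoe was not called. Timd4, the phosphatidylserine receptor of long-lived macrophages, had 48.3, 59.2 and 56.1 in mice 1, 2 and 4, and 89.8, 20.2 and 102.6 in mice 7, 8 and 9. Cx3cr1, the fractalkine receptor of gut macrophages, was nearly level, from 346.6 to 518.3. Folr2, a folate receptor of tissue macrophages, ran from 195.4 in mouse 8 to 546.3 in mouse 7, and Lyve1, which lymphatic vessels share, from 2526 to 4043. Selenop and Gas6, which other cells of the gut wall also express, were lowest in mice 7 and 9, Selenop with 32678 and 25774 against 114058 in mouse 4.

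Neither list had a gene called between the labelled groups, with 0 of 18 for each in the colon by edgeR. The median log2FC in the colon was -0.06 over the resident list and -1.21 over the recruited list, beside -0.01 over all genes. In the blood, where 10 resident genes and 17 recruited genes were tested, the medians were both 0.15 beside 0.04 over all genes.

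**Figure D5:**
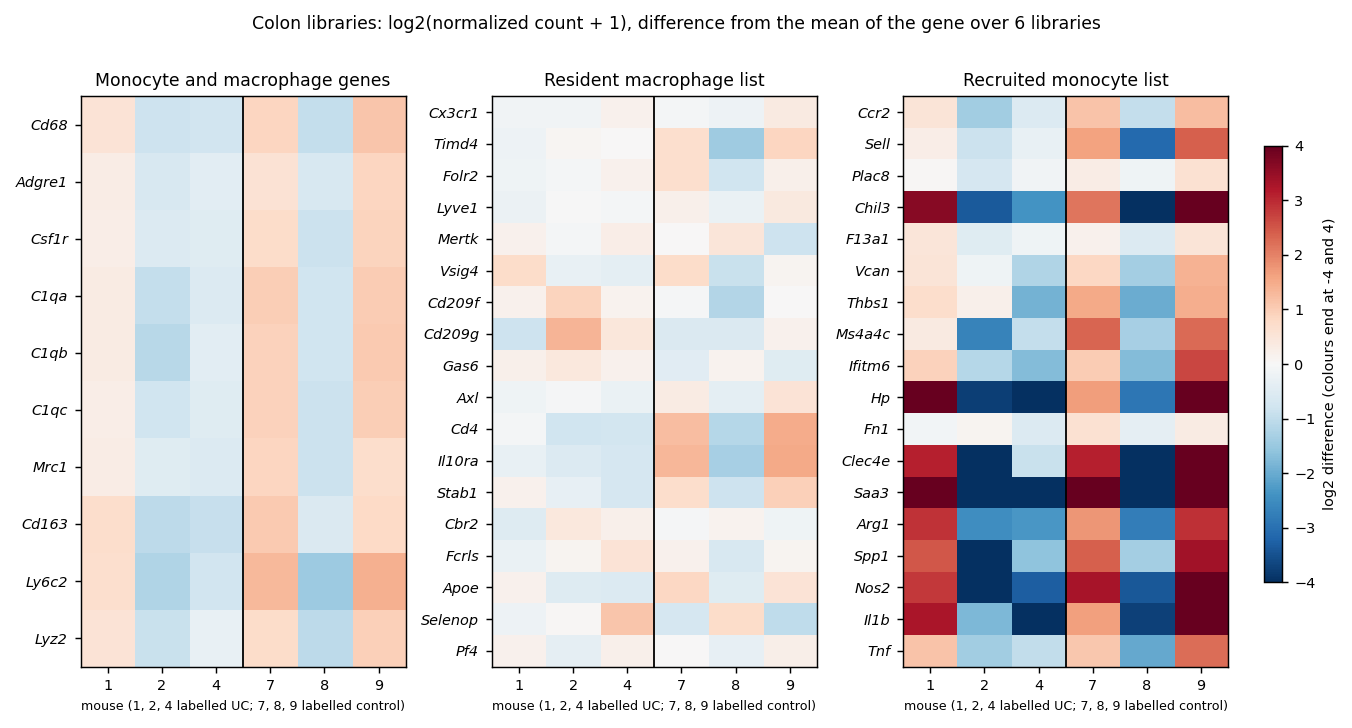
Colon libraries of the 10 genes, the resident macrophage list and the recruited monocyte list, as log2(normalized count + 1) less the mean of each gene over the 6 libraries. Columns are mice, with the line between labelled UC and labelled control, and colours end at -4 and 4. Most genes of the recruited list share the order of the 10 genes with larger differences, and most of the resident list do not. The C1q genes, Mrc1 and Cd163, named above as high in resident macrophages, have that order as well.

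The growth factors and transcription factors of the lineage were read next. Of 9 with a mean of at least 10 in the colon, 6 had their 3 highest values in mice 1, 7 and 9, among them Csf1 (452.5 in mouse 8 to 1307 in mouse 9) and Spi1, which encodes PU.1 (130.6 in mouse 2 to 989.8 in mouse 9). Il34, the second ligand of the CSF1 receptor, did not, with 1366 in mouse 8 and 516.4 in mouse 2 at the ends of its range. In the colon 0 of 9 and in the blood 0 of 8 were called between the labelled groups. Between tissues 3 of 9 were called higher in the colon, where 37.7% of all genes were, and 4 higher in the blood, where 20.8% were. By library size alone the counts were 5 and 0.

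Of 7 chemokines that draw monocytes, 6, all except the fractalkine gene Cx3cl1, had the same 3 colon libraries at the top. Ccl2, the main ligand of CCR2, was at 626.1, 60.1 and 45.4 in mice 1, 2 and 4, and at 431.2, 11.3 and 2983 in mice 7, 8 and 9, and Ccl8 at 2507, 74.9 and 202.9 and at 3505, 95.8 and 3425. None of the 7 was called between labels, although their median log2FC was -2.09. In the blood table Ccl7 and Ccl12 had no entry, and Ccl2 was at most 15.5. Of the partners of C1q in the classical pathway and its control, 6 of 7 had the order too, C4b with 10494, 2538.5 and 2721 in mice 1, 2 and 4 and 12406, 2082 and 17894 in mice 7, 8 and 9. All 7 were called for the colon over the blood, where 37.7% of all genes were. The same 7 were called so by library size alone, and 0 of 7 were called between the labels.

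Markers of some other cells moved with the colon values of the 10 genes and those of others did not. All 10 genes of the shared myeloid list, such as Tyrobp and Ptprc, the latter made by all white blood cells, had the same 3 libraries at the top. Their summed normalized count was 5556 to 15788 under the UC label and 4525 to 32718 under the control label. The neutrophil list summed to 7524 to 37206 under the UC label and 17802 to 69415 under the control label, but Ly6g gave most of these sums in mice 2, 4 and 8 (7350.0, 16355 and 17455). Without Ly6g, which was itself called higher in the colon than the blood, the sums were 15712, 174.1 and 277.1 in mice 1, 2 and 4, and 7475, 346.6 and 43936 in mice 7, 8 and 9. Elane, the gene of neutrophil elastase, was at 0 in all 6. T cell genes had the order in 5 of 6, with sums of 211.6 to 825.9 and 182.8 to 1005, B cell genes in 0 of 5, and gut tissue genes in 1 of 8. Lymphatic endothelium genes had it in 3 of 6, blood endothelium genes in 2 of 6 and red cell genes in 0 of 5. Among all colon genes tested and listed, 18.2% had it. Of 4 Paneth cell genes with a mean of at least 10, Mmp7, a matrix protease, had it, at 154.4, 24.0 and 107.1 in mice 1, 7 and 9 and at most 3.78 in the others. Ang4, an antimicrobial ribonuclease, was highest in mice 1 and 7 at 776.7 and 585.5 and lowest in mouse 8 at 10.1, while Itln1 was highest in mouse 4 at 85.0. The defensin genes Defa24 and Defa30 had means of 4.01 and 0.632. The part of these cells in the values of Lyz2, Cd68 or Ly6c2 was not tested.

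The genes nearest in pattern were sought by the root mean square difference of log2 CPM, centred on each gene's mean, over the 6 libraries of a tissue and among genes with a mean of at least 100 counts. In the colon (15896 genes) C1qb at 0.081 and C1qc at 0.085 were nearest to C1qa, followed by Cd300lb, an activating myeloid receptor, at 0.086. Psmb8 (0.108), Fermt3 (0.120) and Rasgrp1 (0.124) were also among the nearest. For Mrc1 the nearest were Nhs (0.070), the T cell kinase gene Lck (0.093), Cd48 (0.109), Lhfp (0.110) and Olfm1 (0.113), and Csf1r, at 0.105, was the nearest of the other 9 genes. For Ly6c2 they were Gbp8 (0.086), Fcer1g (0.091), Bcl2a1d (0.126), Selplg (0.127) and Bcl2a1b (0.141), while none of the other 9 came nearer than Cd68 at 0.344.

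In the blood (11208 genes) C1qa had no close match, the nearest being Dpep2 at 1.07, followed by Gm20605, Tbc1d2, Fn1 and Ubald1 up to 1.199, and C1qc stood at 1.414. Mrc1 was nearest to Fads1 (0.116), Trp53, H1f0, Fut4 and Mfsd5 (0.153). Ly6c2 was nearest to Lztr1 (0.063), Tbcc, Ighv1-9, Ctsh and Alg1 (0.10), and among the 10 genes to Adgre1 at 0.182 and Lyz2 at 0.276. These distances rest on 6 libraries and are a description with no test.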

How the data were processed

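Total RNA-seq of 6 colon and 6 blood libraries was used. Per the study's methods the authors trimmed reads with Flexbar, removed ribosomal reads with bbduk and mapped to GRCm38 with STAR. They quantified Ensembl 92 genes with StringTie 1.3.4c at default options, and no strand setting of StringTie is named. The deposited counts are whole numbers derived from transcript coverage, not a tally of reads. The deposited normalized counts, a signal scale with 1 table a tissue, are those counts divided by 1 factor a library (0.6644 to 1.3060 in blood, 0.7908 to 1.2123 in colon), and genes outside the tables took 39.1% to 67.9% of the counts of a blood library. They were compared only within a tissue.

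The tests ran in edgeR 4.0.16 under R 4.3.3 (TMM, filterByExpr, glmQLFit, glmQLFTest, Benjamini-Hochberg over all genes tested). A gene was called at padj of at most 0.05 where log2FC was also over 1 or under -1, and in the interaction at padj of at most 0.05. SE is that of log2FC. Alternatives were RLE and library size scaling, no filter, DESeq2 1.42.0, limma-voom (limma 3.58.1), the genes of the normalized tables only, padj alone, all 12 libraries in 1 fit, the mouse as a replicate block, and fits without each mouse. Same-numbered libraries of both tissues come from 1 mouse, by the study's methods and the titles. Deviations from group means of same-numbered libraries correlated across 15802 genes at r from 0.0048 to 0.2273, above 0 in each of the 6 pairs. Values for libraries of different mice are not set beside them, so they do not test the pairing. Gene positions and exon lengths came from GENCODE vM21 (53706 of 53801 identifiers found), promoter sequences from RefSeq. Levels per kb use the summed length of all exons of a gene, which exceeds the longest coding transcript for some genes. Summaries were made in Python 3.11.15. The steps were also run on simulated data with a fixed dispersion and unmixed groups, so that run does not measure power in the labelled groups here.

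The 10 genes and all lists were chosen with earlier results of these data known, and no list was tested as a set. Named are the 10 genes, their paralogs, list genes and the 5 genes nearest in pattern to C1qa, Mrc1 and Ly6c2, of which 1 is not reported here. By default the list genes of highest mean count were to serve as examples, and those given here were instead picked for their known function after their values were seen. Within a tissue, p-values measure the spread between mice within a labelled group. Over the 12 libraries they measure the spread between libraries within the 4 groups. There the colon and blood libraries of a mouse count as independent, except with the mouse as a replicate block.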

Additional observations from a re-analysis of the deposited data

How the results depend on the processing

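Between the labelled groups, 0 of the 10 genes were called in either tissue or in the interaction under any alternative, and their colon log2FC stayed below 0 in all. The count of all genes called moved. In the colon it was 1 in edgeR, 6 with DESeq2, 0 with limma-voom and 0 to 0 without 1 mouse. In the blood it was 0 in edgeR, 1 by library size only, 6 with DESeq2 and 0 to 3 without 1 mouse. In the interaction it was 1 in edgeR, 20 with DESeq2, 0 with the replicate block and 1 to 2 without 1 mouse. In blood, library size only turned Cd68 to -0.42, Adgre1 to -0.26 and Csf1r to -0.22, and limma-voom turned C1qb to -1.21 (interaction 0.05). Without 1 mouse, blood log2FC spanned -0.38 to 0.28 for Cd68, -0.06 to 0.29 for Adgre1, -0.16 to 0.42 for Csf1r, -0.09 to 5.42 for C1qa, -6.24 to 1.87 for C1qb, -1.51 to 3.46 for C1qc and -0.24 to 0.08 for Lyz2, and the interaction -2.71 to 5.97 for C1qb and -4.07 to 0.26 for C1qc. Leaving out mouse 1 gave the turned C1q values. The cause was not tested.

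Colon against blood, 5 genes were called higher in the colon in all alternatives except library size only, which gave 6 with Cd68, and 4 higher in the blood except under the same scaling, which gave 1 and turned Csf1r to 0.48. That scaling also moved the share of calls that were higher in the colon, over all genes, from 64.4% to 91.1%. With the mouse as a replicate block the counts were 5 and 4 again (Mrc1 3.99, Ly6c2 -2.94), and beside Ly6c1 and the interaction count it changed no call reported for the 10 genes. Depth limits the C1q genes and Cd163 in blood, which had fewer than 20 counts in most libraries.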

Other observations

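Patrolling monocytes, the Ly6C-low cells that crawl along vessel walls, were read by 8 genes. Of these, 5 were called higher in the blood, where 20.8% of all genes were, and 1 in the colon, where 37.7% were. By library size alone the counts were 5 and 3, and with the mouse as a replicate block 5 and 0. Treml4, Spn and Cd300e were steady in the blood, with Cd300e at 201.1, 292.0 and 310.1 (normalized counts) in mice 1, 2 and 4 and at 269.5, 267.7 and 210.2 in mice 7, 8 and 9. Of the 8, 3 had their 3 highest colon values in mice 1, 7 and 9, and Ace, the angiotensin-converting enzyme gene, and Eno3, the muscle enolase gene, had theirs in mice 2, 4 and 8. Eno3 was at 390.2, 14831 and 25100.1 in the colon of mice 1, 2 and 4, and at 837.2, 23479 and 1315 in mice 7, 8 and 9.

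The ligand side of Cd163 had a wide range. Hp, which encodes haptoglobin, was at 14627, 36.6 and 24.7 in the colon of mice 1, 2 and 4 and at 1607, 68.1 and 11116 in mice 7, 8 and 9. Hmox1, the haem oxygenase gene, ran from 166.3 in mouse 2 to 1571 in mouse 9. Slc40a1, the iron exporter gene, was lowest in mice 7 and 9, at 7795 and 15008, and highest in mouse 4 at 40237. Of 10 dendritic cell genes, 7 had their 3 highest colon values in mice 1, 7 and 9, such as Ccr7, with 230.2, 40.1 and 79.2 and with 476.7, 37.8 and 651.5, while Siglech of plasmacytoid cells had its highest in mice 2, 4 and 8, at 61.8, 42.9 and 37.8. None of these lists had a gene called between the labelled groups in either tissue.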
